A study of Mus musculus with 39 samples.

Results

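The sites described here are single CpGs whose methylation was higher in naive mouse embryonic stem cells (mESC) lacking p53 than in naive wild-type (WT) cells, and fell again in the p53-null cells after retinoic acid (RA). Members were chosen by measured total methylation. A CpG was a member when total methylation in naive p53-null cells exceeded that of naive WT cells by at least 25 percentage points and fell by at least 25 points in p53-null cells after RA. Of 330387 measured CpGs, 12375 met the first limit and 1683 met both. The members were thus 0.509% of all CpGs and 13.6% of the naive gains. The remaining 10692 naive gains lacked such a fall in p53-null cells. They are called the other gains below, a name for their p53-null course alone, and serve as the comparison set. A further reference is the 64133 CpGs whose naive levels left room to meet both limits, meaning at most 75% in WT and at least 25% in p53-null cells, called the eligible CpGs.

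The series holds 39 libraries in 10 groups. The mESC were derived in 2i medium on irradiated feeders from morulas (embryonic day 2.5) of intercrossed 129s-Trp53tm2Tyj/J heterozygous mice. Their genotype is labelled WT or p53-/-. They were profiled in the naive state (2i with LIF) or, after removal of feeders, on gelatin with 1 uM RA renewed daily over 4 days. Reduced representation bisulfite sequencing (RRBS), which reads MspI fragments, was made from 5 WT and 3 p53-null naive libraries and from 5 WT and 4 p53-null RA libraries. The oxidative form, oxRRBS, was made from 5 and 3 naive and from 4 and 4 RA libraries of WT and p53-null cells. Livers of male mice aged 16 weeks, also bred from heterozygotes, gave 3 WT and 3 p53-null RRBS libraries.

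Methyl groups on the cytosine of CpGs (5-methylcytosine, 5mC) are placed by the DNMT enzymes and copied at replication by DNMT1, and TET enzymes oxidise them to 5-hydroxymethylcytosine (5hmC), a step in their removal. Naive mESC in 2i carry little DNA methylation, and methylation rises when they leave that state, as with RA, a signal that drives differentiation. p53 is a transcription factor best known for its response to DNA damage. RRBS reads 5mC and 5hmC together, here called total methylation, and oxRRBS reads 5mC alone.

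Each group is given by the authors as 1 pooled value per CpG, so no value has an SD, an n of libraries or a known depth, and differences could not be set against the variation of libraries. Means are over CpGs or tiles, and the ranges given are over the 20 chromosomes with members, which describe the genome of the pooled cells and not their libraries.

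The naive p53-null value enters both limits of the rule, and the naive WT and RA-treated p53-null values enter 1 each, so these 3 levels are a description of the choice. Members had a mean total methylation of 38.4% in naive WT cells and 75.4% in naive p53-null cells. After RA they stood at 42.5% in p53-null cells and, in the 1 group that the rule did not use, at 53% in WT cells. The middle 50% of members lay between 27 and 50% in naive WT cells and between 67 and 86% in naive p53-null cells. After RA these bounds were 41 and 67% in WT and 33 and 53% in p53-null cells. The interquartile ranges of the 2 naive groups did not overlap, and those of the 2 RA groups did. A value of 100% in naive p53-null cells was held by 68 members (4.04%) and by 51 other gains (0.477%). The smaller of the gain and the fall was exactly 25 points at 223 members, with means of 40.8% in naive WT, 72.5% in naive p53-null and 45.2% in RA-treated p53-null cells. It was 1 point short at 302 CpGs outside the set, with means of 40.7%, 71.2% and 45.4% in the same order.

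**Figure D1:**
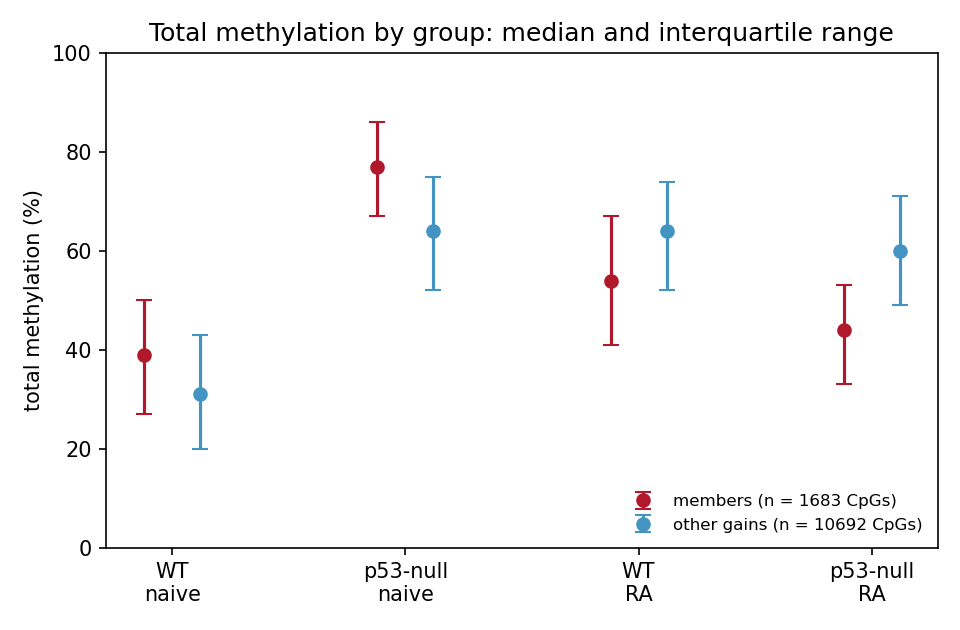
Total methylation in percent (vertical axis) in the 4 mESC groups, as the median (point) and interquartile range (bar) over 1683 members and 10692 other gains. Members stand highest in naive p53-null cells, with a median of 77%, while other gains have similar medians in naive p53-null cells, RA-treated WT cells and RA-treated p53-null cells.

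With WT and p53-null exchanged in the rule, 45 CpGs passed, out of 633 at least 25 points lower in naive p53-null cells. The rule itself passed 1683 of 12375 naive gains (13.6%), so the counts start from sets of unlike size. The mirror image, at least 25 points lower in naive p53-null cells and at least 25 points up after RA, held at 361 CpGs, which were 57.0% of the 633 CpGs with such a naive loss. A fall of at least 25 points after RA was seen at 2854 CpGs in p53-null cells, 59.0% of them members, and at 218 CpGs in WT cells.

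In WT cells the members rose on average after RA. Their mean went from 38.4% to 53%, a change of +14.6 points with chromosome means from +10.3 to +18.4. The WT level rose by at least 10 points at 1047 members (62.2%, where 80.2% of eligible CpGs and 23.8% of all CpGs did so) and by at least 25 points at 391 members (23.2%, against 43% of eligible CpGs and 11.7% of all). It stayed within 10 points at 570 members (33.9%, against 17.8% of eligible and 75.4% of all CpGs). It fell by at least 10 points at 66 (3.92%, against 1.94% of eligible and 0.802% of all CpGs). Other gains rose further in WT cells, from 31.7% to 62.1%, which was +30.5 points, and 65.7% of them rose by at least 25 points. The WT rise at members was therefore smaller than at either reference set.

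**Figure D2:**
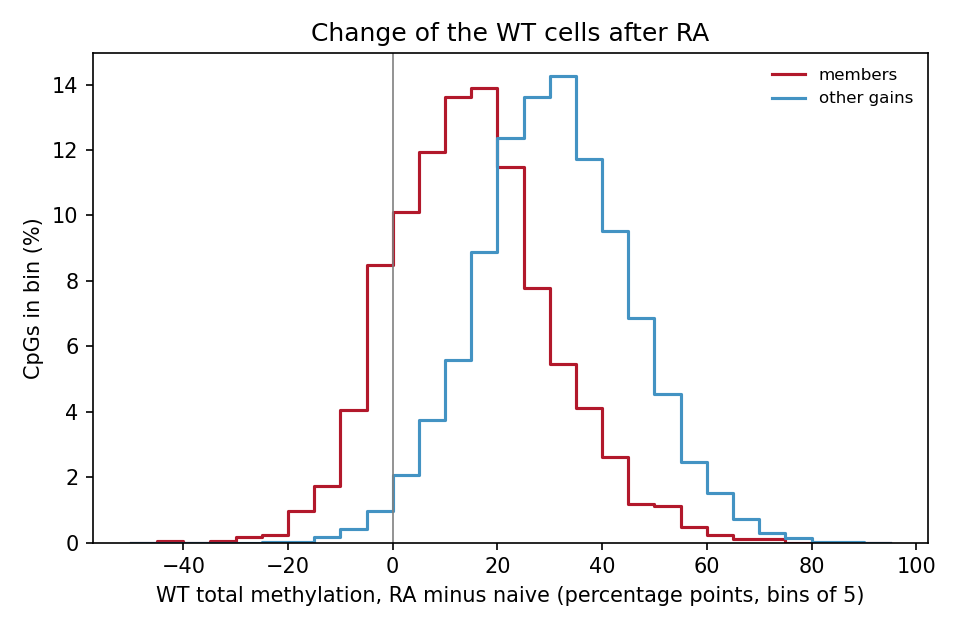
Change of total methylation in WT cells from naive to RA in percentage points (horizontal axis, bins of 5 points) against the share of CpGs in each bin in percent. Members are centred on a median of 14 points and other gains on a median of 30 points.

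The WT course differed with the level from which a member started. Members under 20% in naive WT cells rose by 19.8 points in WT cells, those from 20 to under 40% rose by 18.3, those from 40 to under 60% rose by 11.7, and those from 60% up rose by 4.77. Over the same classes the share of naive gains that were members was 8.61%, 11.2%, 18.5% and 29.9%. Gains that started higher in naive WT cells were thus more often members. By the rule such gains also had to stand higher in naive p53-null cells, which left more room for the fall. The naive WT level enters the WT change as well, so both trends are a description. They were not tested apart from the room to rise or fall.

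With WT rising and p53-null cells falling, the order of the genotypes turned over after RA. Total methylation in RA-treated p53-null cells was 10.5 points below that of RA-treated WT cells on average, with every chromosome mean below 0, from -13.5 to -7.80. It was lower by at least 10 points at 878 members (52.2%, against 31.3% of eligible and 9.1% of all CpGs) and by at least 25 points at 218 members (13%, against 4.27% and 1.15%). It was higher by at least 10 points at 73 members (4.34%, against 10.9% of eligible and 3.45% of all CpGs). Since the RA-treated p53-null level was part of the rule, this difference is a description. Other gains were 2.77 points lower in p53-null than in WT cells after RA. Relative to naive WT cells, p53-null cells after RA were 4.05 points higher at members and within 10 points at 1125 of them (66.8%). That share was 25.3% for eligible CpGs, 6.37% for other gains and 77.6% for all CpGs. The mean level after RA was thus close to that of the untreated WT cells and below that of the treated ones. Naive WT and RA-treated p53-null levels both enter the rule, so this closeness is a description.

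Members were also divided by their WT course, so the WT change of each class follows from the division. After RA, the 391 members with a WT rise of at least 25 points reached 66.8% in WT and 43.5% in p53-null cells. The 570 members with a WT change under 10 points stood at 43.3% and 41.2%. In the latter, naive p53-null cells were at 75.5% and naive WT cells at 41.7%. The rule and the limit of this class together place naive p53-null cells above the other 3 groups.

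The 12 members with the largest value of the smaller of gain and fall, taken at 1 per 1000 bp, lay on 10 chromosomes, and 10 of them were the only measured CpG of their 200 bp tile. Positions are on mouse build mm9 as the file gives them, and no gene or other feature was assigned because no annotation of that build was used. At chr9:20039957-20039958 total methylation was 13% in naive WT, 94% in naive p53-null, 44% in RA-treated WT and 23% in RA-treated p53-null cells. At chr7:7478701-7478702 the values were 20%, 91%, 18% and 15% in the same order. These 2 sites had the largest excursions, with WT rising at the first and flat at the second. At chr17:16433384-16433385 the values were 16%, 90%, 25% and 36%, and at chr2:80760950-80760951 they were 14%, 80%, 41% and 26%. At chr8:68102299-68102300 they were 27%, 89%, 43% and 28%. In all 5 the naive p53-null level stood above the other groups, which the rule sets for all but RA-treated WT cells, at 18 to 44%. Over the 12 sites the naive gain ran from 53 to 81 points and the fall from 52 to 76. WT changed by -4 to +41 points after RA, rising by at least 10 points at 6 and staying within 10 points at 6.

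Members lay where few CpGs were measured. Of 1683 members, 1226 (72.8%) were the only measured CpG of their 200 bp tile, against 64.4% of other gains, 60.5% of eligible CpGs and 19.2% of all CpGs. Only 25 members (1.49%) lay in tiles with 5 or more measured CpGs, where 51.9% of all CpGs lay. No other CpG was measured within 500 bp of 57.0% of members, 44.6% of other gains and 10.7% of all CpGs. The tables count measured CpGs and not CpGs of the genome. Most of the contrast with all CpGs is shared by the eligible CpGs, and within the gains the share that were members was 15.1% in tiles with 1 measured CpG, 10.7% with 2, 10.2% with 3 or 4 and 14.9% with 5 or more, with no steady order.

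Few members sat near each other. Another member lay within 1000 bp of 109 members (6.48%), within 200 bp of 97 and within 5000 bp of 123. Joined at up to 1000 bp, the members formed 1574 single sites, 47 pairs and 5 runs of 3. Any other measured CpG lay within 200 bp of 652 members, and 97 of those (14.9%) had another member there. Of the 2574 windows of 1 Mb with a measured CpG, 1116 held a member, 743 of them just 1, and the most in a window was 7, at chr19:8000001-9000000, among 13 gains.

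The CpGs around members followed them in part. The 1122 measured CpGs within 200 bp of a member averaged 35% in naive WT, 50.2% in naive p53-null, 47.3% in RA-treated WT and, in p53-null cells after RA, 43.1%. Of these neighbours, 97 (8.65%) were themselves members, against 2.22% of the neighbours of other gains, 1.42% of those of eligible CpGs and 0.509% of all CpGs. After RA the p53-null level changed by -7.08 points at neighbours of members, by +5.62 at those of other gains and by +7.52 at those of eligible CpGs. The 1025 neighbours that were not members themselves went from 47.8% to 43.3% in p53-null cells. Averaged per member, the neighbours were higher in naive p53-null cells at 580 of the 652 members with a neighbour (89.0%) and lower after RA at 478 (73.3%). Around other gains the corresponding shares were 90.8% and 34.8%. Both differences faded with distance. The naive difference was +17.4 points at 1 to 25 bp, +12.3 at 101 to 200 bp and +2.33 at 501 to 1000 bp, and the p53-null change after RA was -9.44, -4.42 and +1.51 points over the same distances. The naive p53-null level itself fell from 52.2% at 1 to 25 bp to 10.2% at 501 to 1000 bp, which left little room for a fall. Members, which show both differences by the rule, were 11.8% of the CpGs at 1 to 25 bp and 0.465% at 501 to 1000 bp. The fading was not tested apart from these. Neighbours come from the same libraries, and close ones from the same fragments, so they are not separate measurements.

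**Figure D3:**
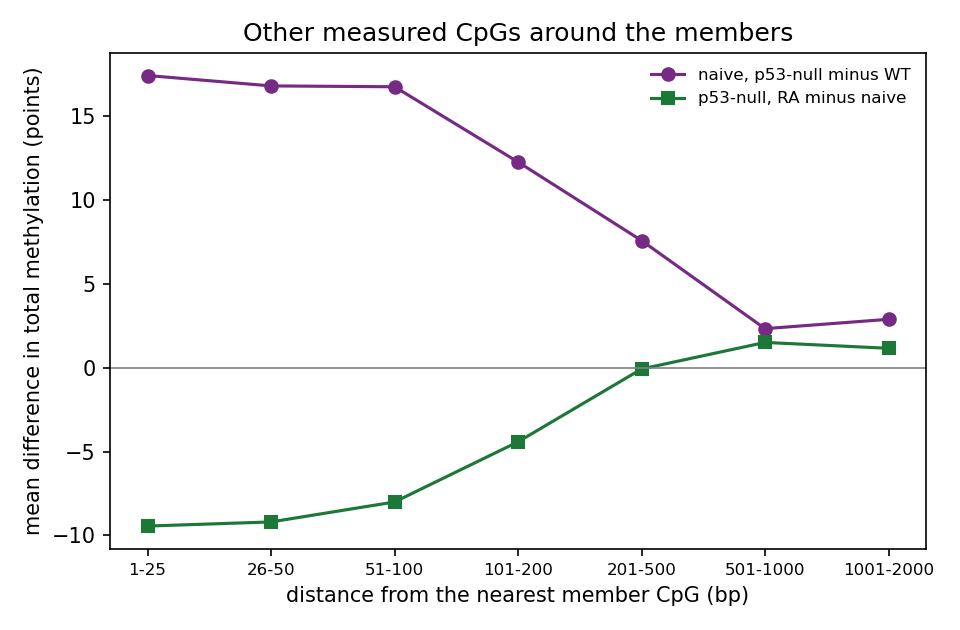
Mean difference in total methylation in percentage points (vertical axis) at the other measured CpGs, by distance in bp from a member (horizontal axis, unequal bins). Distances are to any member and not only to the nearest named on the axis, so a CpG can enter more than 1 bin. Both the naive excess of p53-null cells and their fall after RA are largest within 100 bp, and beyond 500 bp the first is under 3 points and the second is no longer negative. Other members are among the CpGs averaged, and the naive p53-null level is 10.2% at 501 to 1000 bp against 52.2% at 1 to 25 bp.

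The runs of 3 members show the pattern at adjoining sites. On X, chrX:26227723-26228040 held 3 measured CpGs, all members. Its totals in naive WT cells were 44%, 17% and 19%, in naive p53-null cells 86%, 78% and 84%, in RA-treated WT cells 39%, 12% and 32%, and in RA-treated p53-null cells 41%, 36% and 45%. Each naive p53-null value was above every value of the other groups, while WT after RA changed by -5 points at 2 of the CpGs and by +13 points at the third. The run chr10:123297502-123297554 averaged 45.3% in naive WT, 91.3% in naive p53-null, 57.7% in RA-treated WT and, after RA, 52.3% in p53-null cells. The run chr15:96725333-96725359, over 27 bp, averaged 64.7%, 92%, 65.3% and 64.3% in that order, so that 3 of the groups were alike there. The run chr10:56371554-56371639 averaged 42%, 81%, 53% and 47.7%. In chr11:49170660-49170865 the other measured CpG was not a member and went from 93% to 71% in p53-null cells. Among the pairs, chr2:75610862-75610910 started lowest of the 8 runs with most members and largest gain, at 8.5% in naive WT, 64% in naive p53-null, 20.5% in RA-treated WT and, after RA, 30% in p53-null cells. The liver columns described at the end stood at 2.23% for WT and 8.10% for p53-null in its tile, against at least 79.8% for WT in the other 6 of these runs with a liver value.

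Naive gains on X were more often members than those on any autosome. On X 66 of 226 gains were members (29.2%), against 1617 of 12149 on the autosomes (13.3%), where chromosomes ranged from 9.70% on chromosome 19 to 16.9% on chromosome 6. With thresholds of 20 or 35 points for both limits, settings added after the data were seen, the shares were 34.7% on X and 17.2% on the autosomes, and 22.7% and 9.75%. X members stood at 41.3% in naive WT, 80.2% in naive p53-null, 51.9% in RA-treated WT and 44.1% in RA-treated p53-null cells, and autosomal members at 38.3%, 75.2%, 53% and 42.4%. Over all X CpGs the means were 10.5%, 13.2%, 15.6% and 14.8%. Eligible CpGs on X went from 55.4% to 53.5% in p53-null cells after RA, where eligible autosomal CpGs went from 53.8% to 57.8%. In WT cells they went from 40.6% to 56.8% on X and from 40% to 62.1% on the autosomes. Eligible CpGs on X were thus lower after RA than autosomal ones in both genotypes, and the part of this difference in the X share was not tested. The labels give no sex for the mESC.

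**Figure D4:**
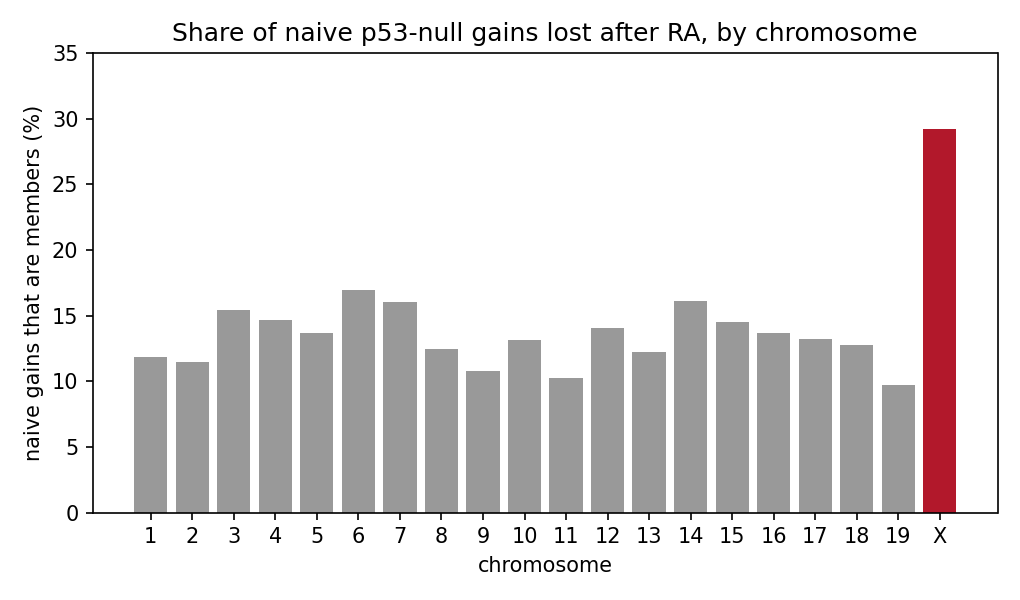
Share of naive p53-null gains that were members, in percent (vertical axis), for each autosome (grey bars) and X (red bar). X stands at 29.2% and the autosomes between 9.70% and 16.9%.

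The CpG table also holds a second value per group, taken here as the oxRRBS 5mC readout because in single-CpG tiles it tracked the tile 5mC of the same genotype more closely than any other tile column (r from 0.828 to 0.902 over at least 46195 tiles, a description). This value never exceeded the total at any of the 330387 CpGs in any group, while tile 5mC exceeded tile total in 20.8% of tiles with such CpGs for WT in the first set of columns described below. The sources used here do not say how that limit arose. CpG-level 5mC is therefore bounded by the totals that chose the members and is given only as a description. Members averaged 21.5% in naive WT, 45.0% in naive p53-null, 38.2% in RA-treated WT and 32.6% in RA-treated p53-null cells, and naive p53-null 5mC was at least 25 points above WT at 823 members (48.9%, against 20.7% of eligible CpGs and 4.22% of all). It fell by at least 25 points after RA in p53-null cells at 531 members (31.6%, against 3.14% and 0.685%). Both held at 467 members (27.7%, against 2.37% of eligible CpGs and 0.5% of all). The remainder, total minus 5mC, is bounded in the same way. At members it averaged 16.9% in naive WT, 30.4% in naive p53-null, 14.8% in RA-treated WT and 9.84% in RA-treated p53-null cells. In p53-null cells after RA the remainder changed by -20.6 points and 5mC by -12.3. At other gains these changes were -14.0 and +9.86 points. In this bounded readout the larger part of the fall at members thus lay in the remainder. It did not in the member tiles described below, where p53-null 5mC changed by -10.2 points and 5hmC by -9.16 between the sets. The site on chromosome 9 above had 5mC of 6%, 76%, 35% and 15%, and the one on chromosome 7 had 11%, 90%, 17% and 0%. At these 2 sites the naive p53-null total was mostly 5mC, which did not hold at all 12 named sites. Over the 12, naive p53-null 5mC was at least 25 points above WT at 7. It fell by at least 25 points after RA at 5. At chr12:105145067-105145068 the total was 43%, 100%, 47% and 42% and 5mC was 0%, 0%, 43% and 0%. Naive p53-null 5mC was listed at 0 at 115 members (6.83%) and at 850 other gains (7.95%).

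The tile table has 5mC that is not bounded in this way. Its 200 bp tiles carry 2 sets of columns whose headings name genotype and modification but no cell state. In tiles with 1 measured CpG the totals of the first set were closest to the naive CpG columns, with median differences of 3.75 points for WT and 4.17 for p53-null, and those of the second set to the RA columns, with 5 and 4.40. The sets are therefore named first and second. The members fell in 1648 tiles, of which 1552 were in the table, 1275 with values in the first set and 1273 in the second. Those medians are over 49729 to 50762 tiles with 1 measured CpG and not over member tiles alone. Member tiles of that kind had mean totals of 41.2% for WT and 67.5% for p53-null in the first set (903 tiles) and 44.6% for p53-null in the second (898 tiles), so the naive excess and the fall were smaller in the tile columns than at the member CpGs. The tile totals come from the same RRBS groups and are no separate measurement. The oxRRBS libraries behind tile 5mC were not used by the rule.

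In the first set mean 5mC of member tiles was 28.8% for WT against 48.6% for p53-null, +19.9 points, and this difference was above 0 on 20 of 20 chromosomes. Tiles of other gains differed by +15.4 points and tiles of eligible CpGs by +11.4. Of the 1275 member tiles, 840 (65.9%) were called higher by the authors' deposited table in p53-null 5mC at q under 0.05 and at least 10 points. The share was 48% in tiles with eligible CpGs and 36.6% in all tiles. In tiles of other gains it was 57.9%, so much of the excess over eligible tiles was shared by them. The authors' deposited table called 29 member tiles lower (2.27%, against 5.58% of eligible and 6.03% of all tiles). For the total, which follows from the rule, the authors' deposited table called 1041 member tiles higher (81.6%, against 44.5% and 28.1%) and 0 lower (against 0.481% and 0.786%). In tiles of other gains 80.5% were called higher in the total, near the share of member tiles. The first-set 5hmC level, obtained by subtracting 5mC from the total, averaged 11.4% for WT and 16.1% for p53-null, +4.62 points, above 0 on 19 of 20 chromosomes. Tiles of other gains differed by +5.88 points and eligible tiles by +0.71 in 5hmC. Most of the first-set excess at member tiles was thus 5mC.

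In the second set mean 5mC of member tiles was 44.4% for WT against 38.1% for p53-null, -6.25 points, and this difference was below 0 on 20 of 20 chromosomes. Tiles of other gains differed by -3.90 points and eligible tiles by -4.44, in the same direction. The authors' deposited table called 225 of 1273 member tiles lower in p53-null 5mC (17.7%, against 15.3% of eligible and 12.3% of all tiles), a share near the background, and 33 higher (2.59%, against 3.36% and 2.81%). In tiles of other gains 14.6% were called lower. For the total, the authors' deposited table called 103 lower (8.09%, against 5.79% and 3.65%) and 3 higher (0.236%, against 0.589% and 0.481%). Mean 5hmC in the second set was 7.61% for WT against 6.16% for p53-null.

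From the first set to the second, over the 1116 member tiles with values in both, p53-null 5mC went from 49.1% to 38.8%, a change of -10.2 points with every chromosome mean below 0, from -16.0 to -5.44. WT 5mC went from 29.8% to 45.2%, +15.4 points. In the 7559 tiles of other gains p53-null 5mC went the other way, from 39.2% to 46.9%, and in eligible tiles from 37.5% to 46.6%. For these courses, tiles of other gains that also hold a member were kept, whereas the calls and genotype differences above leave them out. First-set p53-null 5mC was at least 10 points above WT in 783 of these member tiles (70.2%, against 52.4% of eligible tiles and 63.1% of tiles of other gains). A p53-null 5mC lower by at least 10 points in the second set was found in 563 member tiles (50.4%, against 13.4% of eligible tiles), and in 521 (46.7%, against 11.8%) together with that excess. In tiles of other gains these shares were 15.1% and 14.2%. The 5hmC course was less distinct, with p53-null 5hmC going from 15% to 5.82% in member tiles, from 16.0% to 8.02% in tiles of other gains and from 12.9% to 7.36% in eligible tiles. The totals of p53-null cells changed by -19.4 points in member tiles and by -0.37 in tiles of other gains, a difference that follows from the rule. The changes of 5mC and 5hmC add up to that of the total. With 5hmC falling in both (-9.16 and -8.00 points), the opposite courses of 5mC restate in large part the chosen totals and are a description.

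**Figure D5:**
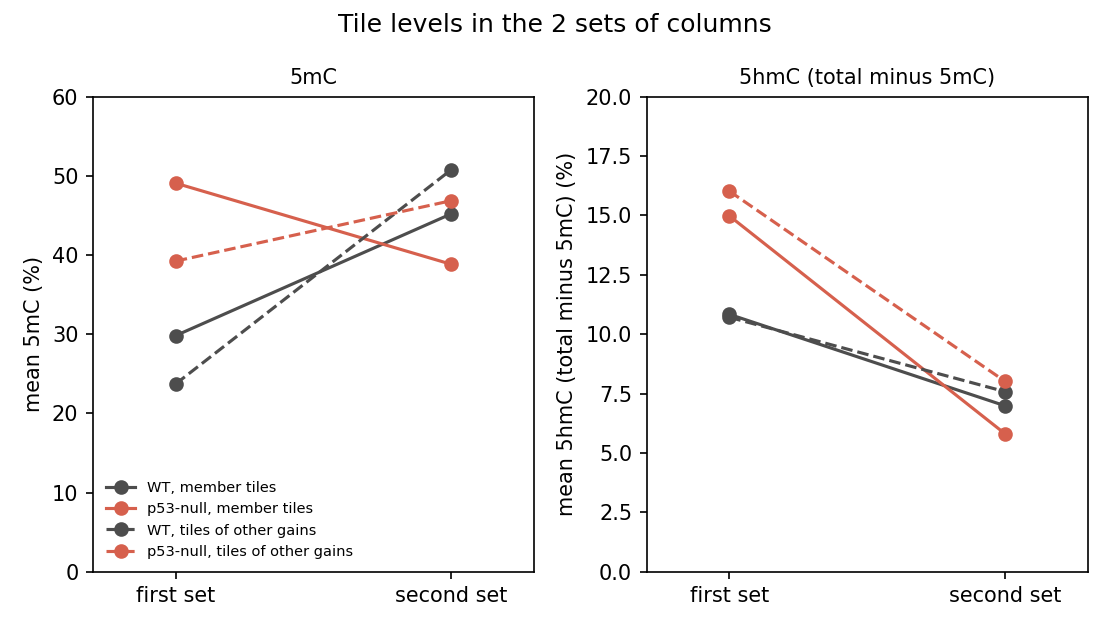
Mean 5mC (left) and 5hmC (right) in percent of 200 bp tiles in the first and second set of columns, for WT (grey) and p53-null (red), with 1116 member tiles as solid lines and 7559 tiles of other gains as dashed lines. Tiles of other gains that also hold a member were not left out. The p53-null 5mC of member tiles is the only 5mC line that goes down, from 49.1% to 38.8%, while all 5hmC lines go down.

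Adult liver methylation came from 2 further tile columns headed by genotype alone, taken as liver because the liver libraries are the only ones whose labels name that table. Member tiles with both values numbered 1244 and were highly methylated, with a mean of 79.4% in WT (median 86.4%) and 78.3% in p53-null livers (median 85.0%). Tiles of eligible CpGs were alike, at 79.6% and 79.4%, and all tiles stood at 61.9% and 61.6%. The WT liver level was at least 80% in 815 member tiles (65.5%, against 66.3% of eligible tiles) and under 20% in 54 (4.34%, against 3.48%). The p53-null level was at least 25 points higher in 26 member tiles (2.09%, against 2.77% of eligible and 3.39% of all tiles) and at least 25 points lower in 56 (4.50%, against 3.29% and 3.96%). These columns have no q-value. The mean liver difference, p53-null minus WT, was -1.18 points with a median of 0 and chromosome means from -4.99 to +3.37, and it was -0.22 in eligible tiles. With limits of 20 points for membership it was -0.48 points. By the WT course in mESC, WT liver means were 81.4% for members with a WT rise of at least 25 points and 78.4% for those within 10 points. The 55 members in tiles under 20% in WT liver were also lower in mESC than members on average. They stood at 21.2% in naive WT, 57.3% in naive p53-null, 31.9% in RA-treated WT and 25% in RA-treated p53-null cells.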

How the data were processed

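The members, comparison sets and named sites were chosen with earlier results of these data known. Per the labels' protocols, libraries were made from MspI-digested DNA, with or without an oxidation step. Per the submitters' processing notes, the tools were Trim Galore, BSMAP and methylKit, with build mm9. Details of coverage filters and pooling were not given in the sources used here.

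For single CpGs the authors deposited whole percent values, 1 column per group for 330387 CpGs. The table of 377684 tiles holds fractions deposited by the authors, multiplied here to percent, with differences and q-values. Its liver columns are headed by genotype only. The plan had asked for headings that name the liver, and they were used because the liver libraries' labels name that table. No q-value comes with them, so no liver tile was named. Another 2 columns matched no sample and were not used.

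5hmC is total minus 5mC. Named CpGs are the 12 members of largest smaller-of-gain-and-fall, 1 per 1000 bp, and named runs the 8 with most members, with chromosome 18 left unnamed. CpGs were assigned to tiles by position, and counts and distances were checked on simulated data. Python 3.11.15, numpy 2.4.6, pandas 2.3.3 and matplotlib 3.10.9 were used. Alternatives were other thresholds, autosomes only, other distances, other weights and other call limits.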

Additional observations from a re-analysis of the deposited data

How the results depend on the processing

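Of 62 alternative values for 17 results, 10 were labelled moved and 52 the same. None changed direction, which counts, shares and levels could not do. For a value other than a count, a move was counted when it exceeded 1 SD over chromosomes. The X share has no such SD and was labelled moved for that reason. With 20 points for both limits there were 3607 members, and with 35 points 372. Among neighbours within 1000 bp the naive difference was 10.8 points instead of 15.1, a move. Their p53-null change after RA was -3.69 instead of -7.08, within 1 SD. The first-set 5hmC difference was 7.21 instead of 4.62 points with limits of 35 points. The liver difference was -0.48 instead of -1.18 points with limits of 20. Both were within 1 SD. With CpGs within 500 bp counted in place of the tile 57.0% of members had no other measured CpG near instead of 72.8%. With a call limit of 25 points and q under 0.01, 463 member tiles were called in the authors' deposited table as higher in first-set 5mC instead of 840 (36.3%, against 17.5% of eligible and 17.1% of all tiles) and 50 as lower in second-set 5mC instead of 225 (3.93%, against 2.81% and 3.30%, near the background). Tiles of other gains stood at 25.6% and 2.69% under these limits. The X and autosomal shares of members among gains at other thresholds stand in the report. No paired analysis was possible because the files hold 1 pooled column per group, and leaving out single libraries could not be run for the same reason. Depth is unknown, so no precision can be given for any single CpG, and a high naive p53-null reading serves both limits of the rule at once.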
